A study of Mus musculus with 9 samples.

Results

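Spinal motoneurons of mice with a spinal cord injury and no stimulation (the untrained group) were compared with those of sham mice, over every gene. The comparison is between 6 of the study's 9 libraries. The other 3, a stimulated group (SBES) with a different frequency for each library, were also in the fit. Their spread therefore enters the standard errors and p-values below. Each group has 3 libraries, numbered 1 to 3, and all animals are wild-type by their labels. The neurons of the sham and untrained groups carried a fluorescent label, TRDA. They were drawn into glass electrodes from fresh slices of spinal cord taken 4 weeks after injury. The Smart-seq2 method, which copies whole transcripts from very little RNA, was then applied. The 3 untrained libraries had the injury and no electrical stimulation. The labels do not say how the sham surgery was done, which level was injured and how, how old the mice were, or how many neurons went into a library. The labels give 3 mice per group without tying a library to a mouse, so the p-values measure only how far single libraries differ, which may be technical in part. The columns of the untrained libraries were matched to them by elimination.

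Of 55401 genes in the table, 15893 passed the filter on low counts and were tested. A total of 70 gene families were described, chosen with earlier results of these data known. Levels are CPM, read counts scaled to an equal, normalised library total, and log2 fold changes are untrained minus sham with a standard error (SE). No gene passed an adjusted p of 0.05 in edgeR's quasi-likelihood test, where the smallest adjusted p was 0.184, so the share called was 0.0%. At an unadjusted p under 0.05 stood 347 genes that were higher in untrained libraries (2.18% of those tested) and 360 that were lower (2.27%). Scaled by library totals alone these counts were 606 and 108, and the median over all genes went from -0.01 to 0.18 on the log2 scale. All 3 untrained libraries lay above all 3 sham libraries for 736 genes (4.63%), and below them for 815 (5.13%). Of all tested genes 50.9% had a log2 fold change below 0. DESeq2 called 14 of 16354 genes (0.0856%), 11 higher (0.0673%) and 3 lower (0.0183%). Every family below is therefore described by its values and read against these shares.

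Total counts were 12641801 to 17675948 per library. Libraries stood apart in 2 ways that the groups do not explain. The replicate 1 libraries of both groups lay apart from the other 4 on the first principal component, at -54.2 (sham) and -21.9 (untrained) against 13.1 to 25.3, and that component held 51% of the variance. Malat1, a nuclear noncoding RNA, was at 20800 and 15300 CPM in them against 466 to 1490 CPM in the others. Sham 3 alone contained Xist, the RNA of the inactive X chromosome, at 12.8 CPM, and it held the Y-linked Ddx3y at 0.327 CPM against 13.0 to 23.3 CPM in the other 5 libraries. The labels give no sex. Without the replicate 1 libraries edgeR called 47 of 16210 genes (0.29%), 38 higher (0.234%) and 9 lower (0.0555%), and without sham 3 it called 0, with 177 genes higher and 205 lower at an unadjusted p under 0.05. Fits without the replicate 1 libraries, here and below, leave out replicate 1 of every group, SBES included. A term for the replicate 1 libraries covers the same ones. Many family medians moved when libraries were left out, and the larger moves are given beside the family.

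Transcripts of motor neurons and of surrounding cells were both present. The 15 fixed motor neuron markers were detected in every library, and their summed level was 2150 to 2810 CPM in sham and 960 to 1460 CPM in untrained libraries. Nefh, Spp1 and Calca held most of that sum. The other 12 markers, of which 11 were lower, summed to 302 to 704 CPM in sham and 200 to 461 CPM in untrained libraries. These sums overlapped, as sham 1 at 302 CPM lay below untrained 2 and 3 at 448 and 461 CPM. The 12 oligodendrocyte markers summed to 50100 to 110000 CPM in sham and 38700 to 58600 CPM in untrained libraries, with overlap. Mbp held most of that sum, at 39900 to 94300 CPM in sham and 32400 to 49500 CPM in untrained libraries. The 12 endothelial markers summed to 1520 to 1990 CPM in sham and 2170 to 2810 CPM in untrained libraries. Bsg held most of that sum, at 1040 to 1200 CPM in sham and 1280 to 1710 CPM in untrained libraries. All 12 had a log2 fold change above 0, and some, such as Pecam1 and Cdh5, overlapped. In such mixed libraries fewer cells of a type and less RNA per cell cannot be told apart.

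Cells make cholesterol from acetyl-CoA through the mevalonate pathway and then through squalene and a series of sterol intermediates. The transcription factors SREBP1 and SREBP2, released from the endoplasmic reticulum when its membrane is low in sterol, switch these genes on together, acting at sterol regulatory elements that often stand beside CCAAT boxes, the binding sites of the factor NF-Y. In the spinal cord myelin-forming oligodendrocytes are the main consumers of new cholesterol, and neurons receive much of theirs from glia.

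The upstream sequence of sterol genes is shown because these genes were lower together in untrained libraries. RefSeq start sites (GRCm38.p6) gave a window for 7 of the 9 mevalonate pathway genes and 10 of the 14 listed genes from squalene to cholesterol. A pair of motifs was searched on both strands of the 250 bases before each start, the sterol regulatory element TCACNCCAC and the CCAAT box CCAAT, which do not overlap each other in the sequences printed. A gene with several start sites was counted if any window held the motif. The sequences below are the 5 sterol genes with a single window, non-overlapping groups and an unadjusted p under 0.05. They run 5' to 3' on the gene's strand up to the base before the start, with motif matches in capitals.
Hmgcs1: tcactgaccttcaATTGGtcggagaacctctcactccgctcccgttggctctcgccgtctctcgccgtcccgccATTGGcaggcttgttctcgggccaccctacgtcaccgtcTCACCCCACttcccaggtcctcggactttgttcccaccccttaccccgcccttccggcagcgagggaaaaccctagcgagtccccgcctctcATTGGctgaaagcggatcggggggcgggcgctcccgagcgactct
Mvd: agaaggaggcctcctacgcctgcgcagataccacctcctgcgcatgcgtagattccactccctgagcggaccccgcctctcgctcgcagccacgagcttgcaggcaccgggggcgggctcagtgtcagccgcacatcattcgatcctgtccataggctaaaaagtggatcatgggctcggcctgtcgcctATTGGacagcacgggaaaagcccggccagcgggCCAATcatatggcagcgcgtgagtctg
Cyp51: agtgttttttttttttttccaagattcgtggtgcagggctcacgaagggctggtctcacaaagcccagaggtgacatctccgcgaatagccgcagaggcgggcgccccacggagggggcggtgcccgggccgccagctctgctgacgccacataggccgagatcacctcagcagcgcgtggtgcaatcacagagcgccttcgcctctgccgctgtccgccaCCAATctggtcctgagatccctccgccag
Msmo1: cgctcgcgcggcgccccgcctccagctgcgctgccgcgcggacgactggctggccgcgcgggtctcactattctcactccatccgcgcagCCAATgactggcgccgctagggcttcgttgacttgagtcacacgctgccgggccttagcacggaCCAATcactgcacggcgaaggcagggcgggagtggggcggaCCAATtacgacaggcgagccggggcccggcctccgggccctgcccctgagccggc
Sc5d: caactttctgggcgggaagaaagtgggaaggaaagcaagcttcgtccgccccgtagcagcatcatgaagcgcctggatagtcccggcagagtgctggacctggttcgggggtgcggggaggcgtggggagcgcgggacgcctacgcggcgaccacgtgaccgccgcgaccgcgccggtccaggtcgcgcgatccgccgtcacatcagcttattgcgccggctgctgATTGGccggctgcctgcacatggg
The Hmgcs1 window is chr13:119690101-119690350 (plus strand), the Mvd window chr8:122443423-122443672 (minus), the Cyp51 window chr5:4104698-4104947 (minus), the Msmo1 window chr8:64733579-64733828 (minus) and the Sc5d window chr9:42264301-42264550 (minus). Hmgcs1 held TCACCCCAC, starting 137 bases before its start site, and 3 CCAAT boxes on the opposite strand, read as ATTGG. Mvd held 2 CCAAT boxes, 1 on each strand, Msmo1 held 3 on its own strand, and Cyp51 and Sc5d held 1 each. Over the families, 6 of 7 mevalonate genes and 10 of 10 genes from squalene to cholesterol had at least 1 CCAAT box, against 40.2% of the 11722 tested genes with a window. The sterol element stood in 1 of 7 and 0 of 10, against 1.25% of tested genes. For comparison, 6 of 18 endothelial genes had a CCAAT box. These are matches of letters within the windows only.

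In the mevalonate pathway 8 of 9 tested genes were lower in untrained libraries, with a median log2 fold change of -0.67 beside -0.01 over all genes. Of these, 4 had an unadjusted p under 0.05 and 3 had groups that did not overlap. Mvd, the decarboxylase that ends the mevalonate steps (chr8:122433601-122443422, minus strand, GRCm38 as for all coordinates here), was at 34.5, 64.4 and 86.6 CPM in sham and 19.2, 23.7 and 25.5 CPM in untrained libraries. Its log2 fold change was -1.44 (SE 0.34). Every untrained library lay below every sham library. Without the replicate 1 libraries it was called at -1.59, with an edgeR adjusted p of 0.0439. Hmgcs1, the synthase of an early step of the pathway, was at 52.3, 88.5 and 97.7 CPM against 35.0, 49.5 and 49.0 CPM, a difference of -0.84 (SE 0.29). Mvk, mevalonate kinase, differed by -0.85 (SE 0.33) and overlapped. Ggps1, which leads from the pathway to protein prenylation rather than to sterols, was the only member above 0, at 0.22 (SE 0.22).

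**Figure D1:**
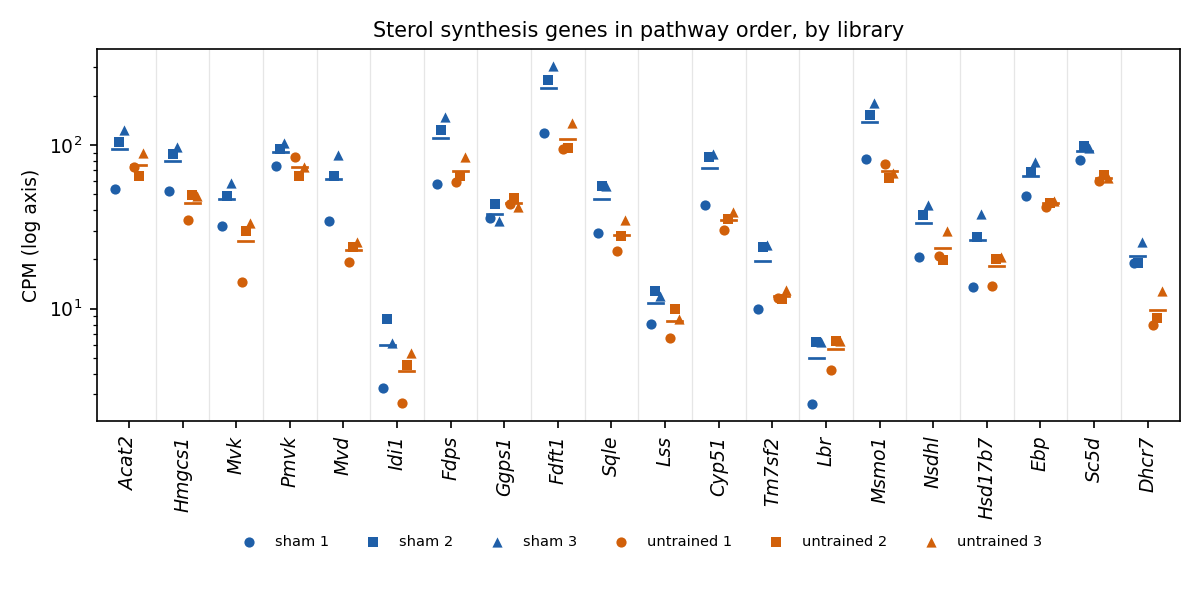
CPM (log axis) of 20 sterol synthesis genes in pathway order, from acetyl-CoA to cholesterol, 1 point per library with bars at the group means. The untrained points lie below the sham points for Mvd, Hmgcs1, Cyp51, Msmo1, Ebp, Sc5d and Dhcr7, and sham 1 (circles) is often the lowest sham library.

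From squalene to cholesterol 12 of 13 tested genes were lower, with a median of -0.65, and 6 had an unadjusted p under 0.05. Dhcr7, which reduces 7-dehydrocholesterol to cholesterol, was at 19.1, 18.9 and 25.5 CPM in sham and 7.93, 8.79 and 12.9 CPM in untrained libraries, a log2 fold change of -1.10 (SE 0.27). Cyp51, the lanosterol demethylase, was at 43.0, 85.2 and 88.0 CPM against 30.5, 35.3 and 38.9 CPM, or -1.05 (SE 0.31). Msmo1, a sterol methyl oxidase, was at 82.1, 153 and 181 CPM against 77.2, 63.0 and 67.7 CPM, or -1.0 (SE 0.32). None of these groups overlapped, though sham 1 lay close to the untrained libraries in Msmo1. Fdft1, which makes squalene, differed by -1.04 (SE 0.34) with overlap, since sham 1 at 119 CPM was below untrained 3 at 137 CPM. Sc5d, a desaturase, was at 81.1, 98.9 and 96.3 CPM in sham and 60.2, 65.6 and 63.1 CPM in untrained libraries. Lbr, which also anchors chromatin at the nuclear envelope, was the only member above 0, at 0.15 (SE 0.36). Without sham 3 the medians were -0.52 (mevalonate) and -0.50 (squalene to cholesterol), and without the replicate 1 libraries -0.74 and -0.69.

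Genes that control or use this pathway differed less as a group. The SREBP and sterol uptake list had a median of -0.15, with 10 of 13 tested members lower. Without the replicate 1 libraries the median was -0.0, with 7 of 13 lower. With all libraries 3 members had an unadjusted p under 0.05, all of them lower. Among them were Insig1, a retention protein for the SREBP complex, at -0.89 (SE 0.31), and Srebf2, which encodes SREBP2, at -0.61 (SE 0.25). Both are themselves known SREBP2 targets. Scap, the SREBP escort, stood at -0.12 (SE 0.23), and Npc2, a lysosomal sterol carrier, at -0.04 (SE 0.27). For Srebf1, which encodes SREBP1, sham 1 stood apart at 433 CPM against 83.5 and 128 CPM in the other sham libraries, and untrained libraries had 105 to 165 CPM. With all libraries the efflux and LXR target list was split evenly, 7 lower and 7 higher, with a median of -0.04. That median was 0.28 without the replicate 1 libraries, with 5 of 14 lower, and 0.15 without sham 1. Fatty acid synthesis genes were lower in 17 of 19, with a median of -0.30 and 2 members at an unadjusted p under 0.05. The median was -0.17 without the replicate 1 libraries, with 14 of 19 lower, and also -0.17 without untrained 1. The 2 members were the elongases Elovl7 (-0.88, SE 0.32) and Elovl6 (-0.60, SE 0.24), neither of which overlapped.

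Oligodendrocyte transcripts were lower beside the sterol genes. In the myelin list 23 of 26 genes were lower, with a median of -0.47 that was -0.22 without the replicate 1 libraries and -0.19 without untrained 1, and 5 had an unadjusted p under 0.05. Opalin, a myelin membrane protein, was at 174, 223 and 282 CPM in sham and 50.6, 108 and 141 CPM in untrained libraries, a log2 fold change of -1.18 (SE 0.44). Cryab, a small heat shock protein of oligodendrocytes, was at 1190, 765 and 1390 CPM against 300, 500 and 569 CPM, or -1.29 (SE 0.41). The groups did not overlap in either gene. The list of myelin sphingolipid synthesis genes had a median of -0.21, with 12 of 15 lower and members up to 0.55. Its 3 members at an unadjusted p under 0.05 were all lower: Ugt8a, the galactosyltransferase, differed by -1.32 (SE 0.31), Fa2h, the fatty acid hydroxylase, by -0.70 (SE 0.26) and Gal3st1, the sulfotransferase, by -0.68 (SE 0.26), with no overlap in any of them. Whether the lower oligodendrocyte transcripts had a part in the lower sterol transcripts was not tested.

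**Figure D2:**
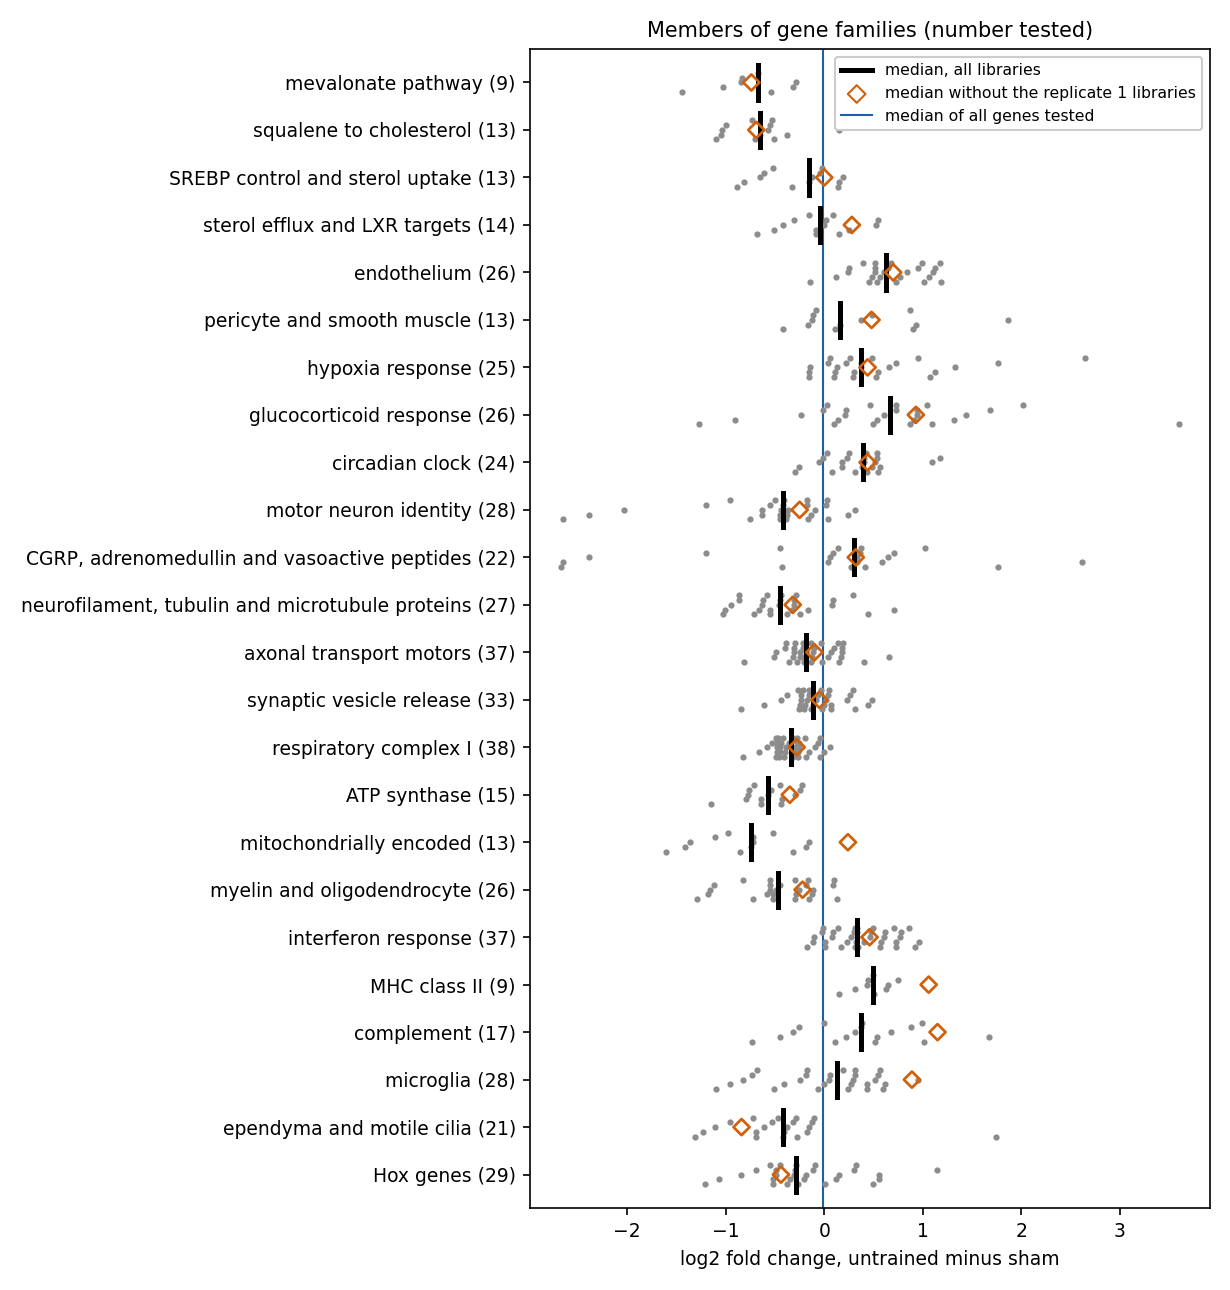
Log2 fold change, untrained minus sham, of each tested member (grey) of 24 gene families, with the family median over all libraries (black), the median without the replicate 1 libraries (orange) and the median of all genes (blue line). Sterol synthesis medians lie at -0.67 and -0.65, endothelium at 0.63 and glucocorticoid response at 0.67, and the orange marker of the mitochondrially encoded genes stands on the other side of 0 from the black one.

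Vessel genes were higher in untrained libraries. Endothelial cells line the capillaries that supply motor neurons, and in the spinal cord they carry the tight junctions and transporters of the blood-spinal cord barrier. In the endothelial list 25 of 26 genes were higher, 14 of them at an unadjusted p under 0.05 and 8 with no overlap, and the median was 0.63. It was 0.49 without sham 3 and 0.93 without sham 2. Eng, endoglin, a co-receptor for TGF-beta family ligands, was at 9.04, 8.25 and 6.65 CPM in sham and 14.3, 24.2 and 15.2 CPM in untrained libraries, a log2 fold change of 1.17 (SE 0.29). Esam, an endothelial adhesion molecule, was at 11.3, 23.3 and 15.6 CPM against 29.7, 46.0 and 39.0 CPM, or 1.19 (SE 0.30). Neither overlapped. Among transporters of the barrier, Slc2a1, the glucose transporter GLUT1, was at 101, 145 and 120 CPM against 227, 233 and 249 CPM (0.95, SE 0.26). Slco1a4, an organic anion transporter, was at 13.0, 24.5 and 11.6 CPM against 34.4, 41.6 and 29.7 CPM (1.10, SE 0.31). Members differed among themselves: Cldn5, the main tight junction claudin, stood at 0.39 (SE 0.39), Mfsd2a, a lipid transporter, at 0.25 (SE 0.38), and Slc16a1, a lactate transporter, at -0.14 (SE 0.31). Robo4, an endothelial guidance receptor, was at 0.763, 1.90 and 0.981 CPM in sham and 1.98, 5.07 and 4.95 CPM in untrained libraries.

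For mural cells around the vessels, the pericyte and smooth muscle list had a median of 0.16 over 13 tested genes, with 8 higher. It was 0.48 without the replicate 1 libraries, with 1 of 13 lower, and 0.05 without sham 3. Rgs5, a pericyte signalling regulator, stood at 0.90 (SE 0.37) with overlap. Ndufa4l2, a pericyte-enriched homologue of a respiratory subunit that is induced by hypoxia, was at 3.38, 7.24 and 4.20 CPM in sham and 13.4, 31.9 and 9.23 CPM in untrained libraries. That is a log2 fold change of 1.87 (SE 0.49) with no overlap.

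Cells short of oxygen stabilise the transcription factors HIF1 and HIF2, which switch on genes of glucose uptake, glycolysis, vessel growth and mitochondrial turnover. In the hypoxia list 22 of 25 tested genes were higher, 8 of them at an unadjusted p under 0.05, with a median of 0.37. Hif3a, a HIF family member that is itself a hypoxia and glucocorticoid target (chr7:17031507-17062427, minus strand), was at 0.872, 0.698 and 0.382 CPM in sham and 3.17, 3.45 and 5.25 CPM in untrained libraries. Its log2 fold change was 2.65 (SE 0.39), with an adjusted p of 0.184 in edgeR and 3e-05 in DESeq2. The lowest untrained library was above the highest sham library, and without sham 3 the log2 fold change was 2.34. It was called in edgeR, at 3.04 (adjusted p 0.0164), without the replicate 1 libraries. Ankrd37, a small HIF1 target, was at 4.25, 8.38 and 7.47 CPM against 17.8, 13.2 and 20.0 CPM (1.33, SE 0.47). Bnip3, a mitochondrial receptor for autophagy, was at 155, 209 and 191 CPM against 279, 290 and 241 CPM (0.55, SE 0.21). Vegfa, the vessel growth factor, overlapped, with untrained 1 at 5.68 CPM and untrained 2 at 21.4 CPM beside 4.36 to 6.98 CPM in sham. The oxygen sensors and factors themselves stood near 0, with Hif1a at 0.04 (SE 0.25), Epas1, which encodes HIF2 alpha, at 0.13 (SE 0.26) and Egln3, a HIF hydroxylase, at -0.14 (SE 0.30). Slc2a1 stands on both the hypoxia and the endothelial list.

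Glucocorticoids act through the receptor Nr3c1, which binds DNA and raises a set of target genes shared by many cell types, among them brakes on inflammation and clock genes. In the glucocorticoid list 22 of 26 tested genes were higher, with a median of 0.67, and 9 were higher and 1 lower at an unadjusted p under 0.05. The median was 0.49 without untrained 3 and 0.84 without untrained 1. Plin4, a coat protein of lipid droplets, was at 0.545, 0.444 and 0.382 CPM in sham and 1.39, 3.23 and 11.8 CPM in untrained libraries, a log2 fold change of 3.60 (SE 0.73) with an adjusted p of 0.524 in edgeR and 0.000125 in DESeq2. Untrained 3 was the highest library. Fkbp5, a co-chaperone of the receptor, was also highest in untrained 3, with 7.08, 12.8 and 9.49 CPM in sham and 11.7, 17.0 and 45.2 CPM in untrained libraries (1.32, SE 0.44). Sgk1, a kinase known as a glucocorticoid target, was at 33.2, 132 and 20.7 CPM against 121, 217 and 260 CPM (1.68, SE 0.56). Untrained 1 lay below a sham library in both genes. Klf9, a transcription factor, was at 40.1, 43.1 and 46.0 CPM against 54.5, 76.4 and 66.1 CPM (0.61, SE 0.23) with no overlap. Tsc22d3, a classical target, did not follow: it was at 155, 445 and 340 CPM in sham and 154, 320 and 461 CPM in untrained libraries (-0.01, SE 0.45). The receptor Nr3c1 stood at 0.03 (SE 0.24). Hsd11b1, the enzyme that regenerates active hormone inside cells, was lower, at 72.3, 141 and 195 CPM in sham and 21.3, 49.2 and 99.3 CPM in untrained libraries (-1.27, SE 0.47).

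**Figure D3:**
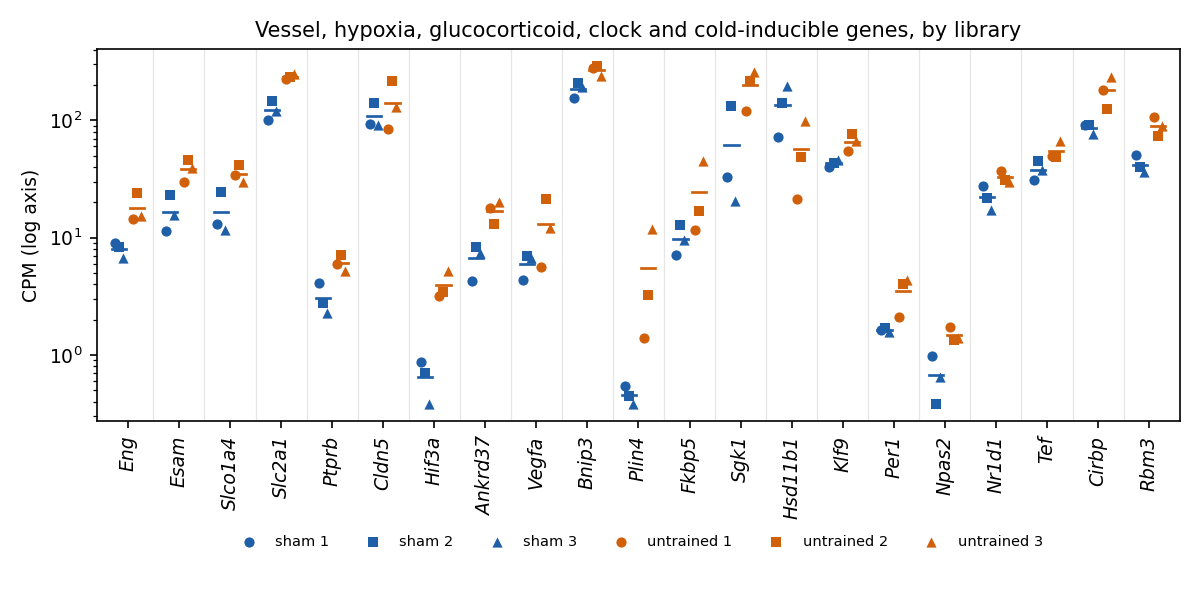
CPM (log axis) of 21 vessel, hypoxia, glucocorticoid, clock and cold-inducible genes, 1 point per library with bars at the group means. Hif3a, Plin4, Cirbp and Rbm3 are higher in every untrained library than in any sham library, while Vegfa, Fkbp5, Sgk1 and Hsd11b1 overlap.

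The circadian clock is a loop in which Clock and Arntl drive their own repressors, the Per and Cry genes. In the clock list 20 of 24 genes were higher, with a median of 0.39. Of these, 6 had an unadjusted p under 0.05 and 7 had no overlap. Per1, a repressor of the loop and also a glucocorticoid target, was at 1.63, 1.71 and 1.58 CPM in sham and 2.12, 4.06 and 4.34 CPM in untrained libraries (1.09, SE 0.38). Nr1d1, the repressor REV-ERB alpha, was at 27.6, 21.8 and 17.3 CPM against 37.2, 30.8 and 29.7 CPM (0.55, SE 0.23). Tef, an output factor of the clock, was at 31.0, 45.1 and 37.6 CPM against 49.8, 48.7 and 66.7 CPM (0.54, SE 0.22). The activators did not stand apart, with Arntl at 0.08 (SE 0.27) and Clock at -0.05 (SE 0.38). The time of day of dissection is not given in the labels. Both cold-inducible RNA-binding proteins were higher with no overlap. Cirbp was at 91.0, 92.0 and 75.9 CPM in sham and 181, 126 and 234 CPM in untrained libraries (1.06, SE 0.26), and Rbm3 at 50.2, 39.7 and 36.1 CPM against 107, 74.3 and 89.3 CPM (1.10, SE 0.29).

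Motor neurons release acetylcholine at the muscle and carry peptides such as CGRP, encoded by Calca and Calcb, and urotensin II, encoded by Uts2. The peptides were lower in untrained libraries, while Chat, the enzyme of acetylcholine synthesis, was nearly level. Calca (chr7:114631478-114636357, minus strand) was at 213, 276 and 546 CPM in sham and 87.3, 66.1 and 44.3 CPM in untrained libraries. Its log2 fold change was -2.39 (SE 0.41), or -1.89 without sham 3, and its adjusted p was 0.184 in edgeR and 2.05e-05 in DESeq2. Calcb was at 50.8, 117 and 161 CPM against 33.1, 55.4 and 54.9 CPM (-1.20, SE 0.36), with untrained 2 and 3 above sham 1. Uts2 was at 44.7, 85.7 and 160 CPM against 4.49, 28.0 and 13.0 CPM (-2.67, SE 0.62), and its homologue Uts2b at 9.91, 34.5 and 28.7 CPM against 0.595, 7.18 and 3.86 CPM (-2.65, SE 0.75). Neither urotensin overlapped. Without the replicate 1 libraries edgeR called all 4, with adjusted p of 0.0164 (Calca), 0.0258 (Calcb), 0.0186 (Uts2) and 0.029 (Uts2b).

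Adm, adrenomedullin, a peptide of the CGRP family that widens vessels, ran the other way, at 5.67, 8.63 and 9.32 CPM in sham and 28.4, 33.2 and 19.2 CPM in untrained libraries (1.76, SE 0.30). It is also a hypoxia target. Adcyap1, which encodes the neuropeptide PACAP, was at 11.8, 8.70 and 4.31 CPM against 22.5, 12.1 and 15.0 CPM (1.02, SE 0.43). The accessory proteins of the shared receptors stood near level, with Ramp1 at 0.27 (SE 0.25) and Ramp2 at 0.37 (SE 0.25).

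In the motor neuron identity list 23 of 28 genes were lower, with a median of -0.42 that was -0.25 without the replicate 1 libraries and -0.15 without untrained 1, and 7 had an unadjusted p under 0.05. Chat, which makes acetylcholine, was at 19.6, 34.6 and 34.5 CPM in sham and 20.2, 32.3 and 30.9 CPM in untrained libraries, a log2 fold change of -0.09 (SE 0.29). Slc18a3, its vesicular transporter, stood at -0.42 (SE 0.42), Slc5a7, the choline transporter, at -0.37 (SE 0.48) and Prph, the motor neuron filament peripherin, at -0.38 (SE 0.43), all with overlap. The factors that set motor neuron fate stood at 0.24 (Isl1, SE 0.35), -0.39 (Mnx1, SE 0.45) and -0.63 (Lhx3, SE 0.47). Other members were lower with no overlap. Chodl, a lectin-like membrane protein of motor neurons, was at 32.9, 44.4 and 36.5 CPM in sham and 11, 27.9 and 29.0 CPM in untrained libraries (-0.75, SE 0.32). Mmp9, a metalloproteinase, was at 8.61, 7.81 and 9.43 CPM against 5.62, 5.07 and 6.03 CPM (-0.63, SE 0.25). Spp1, osteopontin, which motor neurons share with microglia, was at 882, 515 and 605 CPM against 286, 386 and 359 CPM (-0.96, SE 0.35). Sv2a, a synaptic vesicle protein, and Esrrg stood at 0.31 (SE 0.21) and 0.03 (SE 0.36).

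**Figure D4:**
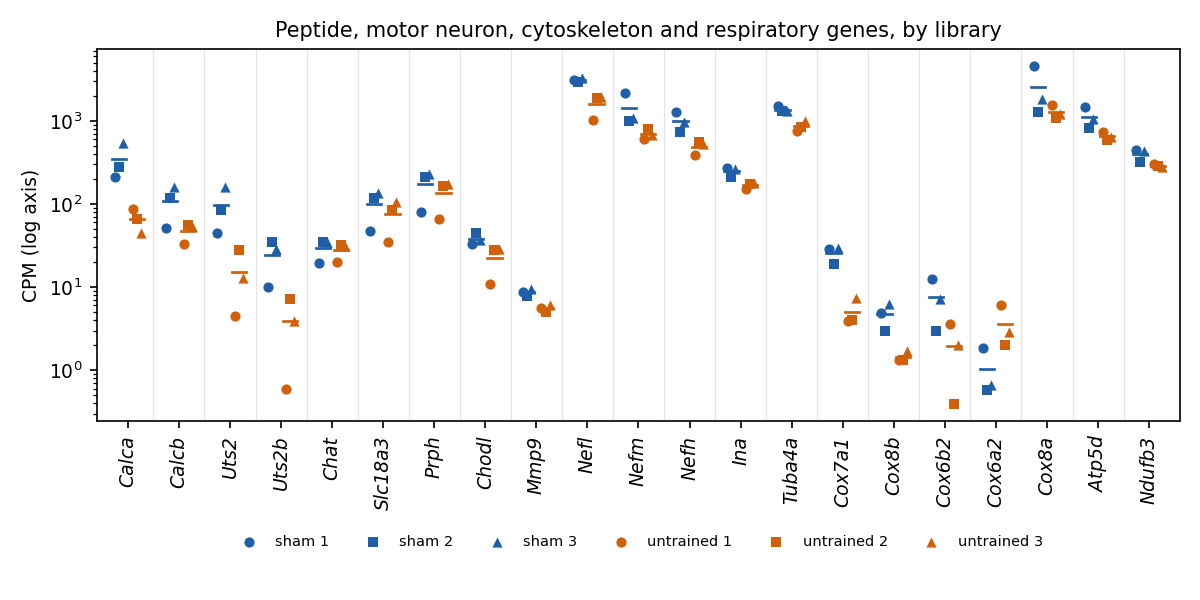
CPM (log axis) of 21 peptide, motor neuron, cytoskeleton and respiratory genes, 1 point per library with bars at the group means. Calca, Uts2, Uts2b, the neurofilament genes and Cox7a1 are lower in every untrained library than in any sham library, Cox6a2 is higher in each, and Chat overlaps.

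Large axons are filled with neurofilaments and microtubules. In the list of neurofilament, tubulin and microtubule proteins 22 of 27 genes were lower, with a median of -0.45, and 11 had no overlap. The 3 neurofilament subunits were lower together. Nefl was at 3140, 2910 and 3270 CPM in sham and 1020, 1880 and 1930 CPM in untrained libraries (-0.95, SE 0.33). Nefm was at 2180, 1000 and 1070 CPM against 605, 808 and 674 CPM (-1.03, SE 0.38), and Nefh at 1270, 726 and 958 CPM against 386, 555 and 521 CPM (-1.01, SE 0.41). Their partner Ina, internexin, was at 269, 210 and 264 CPM against 152, 176 and 180 CPM (-0.55, SE 0.20). None of these 4 overlapped. Of the tubulins 15 of 16 were lower, with a median of -0.37, and Tuba4a was at 1500, 1300 and 1300 CPM against 748, 833 and 1000 CPM (-0.66, SE 0.27). Axonal transport motors had a median of -0.19, with the dynein light chains Dynll1 at -0.81 (SE 0.30) and Dynll2 at -0.49 (SE 0.21). Genes of synaptic vesicle release had a median of -0.11, or 0.05 without sham 1. The 5 pan-neuronal markers that are not cytoskeletal genes summed to 3330 to 5730 CPM in sham and 2780 to 4420 CPM in untrained libraries. These sums overlapped, and Snap25 held most of them, at 1790 to 4330 CPM in sham and 1760 to 3460 CPM in untrained libraries. Of the 5 markers 4 were lower. Eno2 did not overlap, at 505, 491 and 559 CPM in sham and 313, 349 and 438 CPM in untrained libraries. The part of these markers in the lower cytoskeletal levels was not tested. The list of genes associated with axon regeneration had a median of 0.29, which was 0.08 without untrained 1, 0.17 without sham 3 and 0.48 without sham 1. It includes Ecel1, a peptidase induced in injured neurons, at 26.3, 22.7 and 25.4 CPM in sham and 43.2, 35.5 and 57.3 CPM in untrained libraries (0.87, SE 0.26).

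With all libraries, receptors and channels stood close to the median of all genes. Medians were -0.05 for glutamate receptors and transporters, 0.03 for GABA and glycine transmission and 0.03 for sodium, calcium and HCN channels. They moved with single libraries, to 0.21, 0.30 and 0.31 without sham 1 and to -0.17, -0.15 and -0.15 without untrained 1. Potassium channels had a median of -0.09 over 72 tested genes, with 4 lower and 0 higher at an unadjusted p under 0.05. Kcnc1, a fast potassium channel, was at 114, 75.5 and 97.0 CPM in sham and 64.4, 59.9 and 67.0 CPM in untrained libraries (-0.58, SE 0.22). Hcn3, a pacemaker channel, was at 4.47, 2.41 and 2.29 CPM against 0.925, 1.22 and 1.15 CPM (-1.45, SE 0.40), and Cacna1h, a low-threshold calcium channel, at 1.74, 1.46 and 1.09 CPM against 1.92, 3.23 and 3.86 CPM (1.09, SE 0.40). None of these 3 overlapped. Trpv4, a channel that senses swelling, was at 0.436, 0.317 and 0.273 CPM against 1.39, 1.06 and 1.15 CPM (1.83, SE 0.51). Serotonin receptors had a median of 0.14, with 7 of 12 tested genes higher. Without the replicate 1 libraries it was -0.18, with 8 of 12 lower. Among them Htr2a, which supports motor neuron excitability, was at 2.83, 1.02 and 2.02 CPM against 2.84, 4.95 and 3.32 CPM (0.95, SE 0.48).

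Mitochondria make ATP through 4 electron-carrying complexes and the ATP synthase, built from nuclear and mitochondrial genes. Nuclear-encoded subunits were lower in untrained libraries: 36 of 38 for complex I (median -0.34), 12 of 14 for complexes II and III (median -0.18), 10 of 11 common cytochrome oxidase subunits (median -0.71) and 15 of 15 for the ATP synthase (median -0.57). Few members had an unadjusted p under 0.05, namely 2, 0, 1 and 4. Sham 1 carried much of the size. Without it the medians were -0.03 for complex I, -0.18 for common cytochrome oxidase subunits and -0.16 for the ATP synthase. Without the replicate 1 libraries they were -0.28, -0.32 and -0.35. The groups overlapped in all 11 common cytochrome oxidase subunits. Atp5d, the delta subunit, was at 1470, 831 and 1040 CPM in sham and 736, 596 and 637 CPM in untrained libraries (-0.76, SE 0.28) with no overlap. Ndufb3, of complex I, was at 445, 320 and 437 CPM against 303, 283 and 276 CPM (-0.48, SE 0.21), also with no overlap. Genes of the mitochondrial genome had a median of -0.74 that turned to 0.24 without the replicate 1 libraries and to 0.31 without sham 1. mt-Co2 was at 612 CPM in sham 1 against 65.8 to 131 CPM in the other 5 libraries.

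Cytochrome oxidase subunits that replace each other between tissues went separate ways. Cox7a1, the heart and muscle form of subunit 7a (chr7:30184144-30186078, plus strand), was at 28.9, 18.7 and 29.9 CPM in sham and 3.90, 4.01 and 7.30 CPM in untrained libraries. Its log2 fold change was -2.35 (SE 0.38), with an adjusted p of 0.184 in edgeR and 2.05e-05 in DESeq2. In edgeR it was called without the replicate 1 libraries (adjusted p 0.0267) and with a term for those libraries (adjusted p 0.035). Cox8b, a muscle and brown fat form, was at 4.90, 2.98 and 6.32 CPM against 1.32, 1.34 and 1.69 CPM (-1.70, SE 0.38). Cox6b2, known from testis, was at 12.5, 2.98 and 7.14 CPM against 3.57, 0.390 and 1.99 CPM (-1.92, SE 0.67) and overlapped. Cox6a2, the muscle form of subunit 6a, was higher, at 1.85, 0.571 and 0.654 CPM in sham and 6.08, 2.00 and 2.84 CPM in untrained libraries (1.90, SE 0.61). Most defining genes of muscle and fat were at or near 0. Of 9 skeletal muscle markers, Myh1, Myh4, Ckm, Myl1 and Ttn were at 0 in at least 1 library. The list, which includes Cox6a2 itself, summed to 3.11 to 15.4 CPM. Acta1, a muscle actin on the list, was at 4.47, 0.952 and 0.872 CPM in sham and 4.56, 0.724 and 2.41 CPM in untrained libraries. The source of the tissue-restricted transcripts was not tested. Of 6 fat markers, Ucp1, Adipoq, Plin1, Fabp4 and Lep were at 0 in at least 1 library. The other fat marker, Cidea, a lipid droplet protein, was at 13.9, 8.76 and 11.8 CPM in sham and 12.8, 10.4 and 13.3 CPM in untrained libraries.

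Cytosolic ribosomal proteins were lower in 39 of 50 large and 27 of 34 small subunit genes, with medians of -0.27 and -0.32. These were -0.09 and -0.11 without the replicate 1 libraries, and 0.02 and 0.05 without sham 1. Medians stood near 0 for the proteasome (-0.03), the vacuolar ATPase (0.03), aminoacyl tRNA synthetases (-0.05), autophagy (-0.07), glycolysis (0.03) and the integrated stress and unfolded protein response (-0.01). A scan of 175 groups of protein-coding genes that share the letters of their symbol, with at least 10 tested members each, needed no list chosen by hand. Its 6 lowest medians were Cox (-0.49), S (-0.47, symbols in which a digit follows the first letter, such as S100b), Ndufa (-0.45), Ndufb (-0.31), Rpl (-0.27) and Rps (-0.24). Without the replicate 1 libraries the S group stood at 0.05, Rps at -0.03, Rpl at -0.09 and Cox at -0.28. The 6 highest were Ccl (0.69), Casp (0.38), Irf (0.34), Zkscan (0.33), Bcl (0.30) and Klf (0.30). Among the 3179 tested genes of highest mean FPKM 1990 were lower (median -0.08), and among the 3179 of shortest exonic length 1831 were lower (median -0.08). Chromosome medians lay between -0.04 and 0.03 except for the mitochondrial genome (-0.72) and Y (0.78), where sham 3 lacked most counts.

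Immune medians moved with the libraries used. Microglia are the resident macrophages of the spinal cord, and neutrophils and other leukocytes enter it from blood. The medians for microglia, complement, MHC class II and leukocytes were 0.13, 0.37, 0.49 and 0.11 with all libraries. Without the replicate 1 libraries they were 0.89, 1.15, 1.06 and 1.64, and without sham 3 they were -0.10, 0.07, 0.33 and -0.40. Sham 1 held high levels of neutrophil genes, and their part in these medians beyond that comparison was not tested. S100a8, a subunit of the neutrophil protein calprotectin, was at 1010 CPM in sham 1 and at 12.4 and 3.87 CPM in sham 2 and 3. In untrained libraries it was at 459, 114 and 48.3 CPM. Ngp, a neutrophil granule protein, was at 105, 1.14 and 0.109 CPM in sham and 102, 28.1 and 16.1 CPM in untrained libraries. Its log2 fold change was 0.48 (SE 1.34) with all libraries and 5.22 without the replicate 1 libraries, where the edgeR adjusted p was 0.00846. Lgals3, galectin 3, a gene of activated phagocytes, was at 130, 8.19 and 4.09 CPM against 46.1, 47.3 and 69.8 CPM, and Capg, an actin-capping protein of macrophages, at 38.7, 13.6 and 9.76 CPM against 28.4, 34.9 and 45.6 CPM. Both were called without the replicate 1 libraries, at 3.29 (adjusted p 0.004) and 1.81 (adjusted p 0.0164) in edgeR, and neither was with them. Red blood cell markers were also high in the replicate 1 libraries, summing to 728 and 856 CPM against 28.2 to 98.9 CPM in the other 4.

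**Figure D5:**
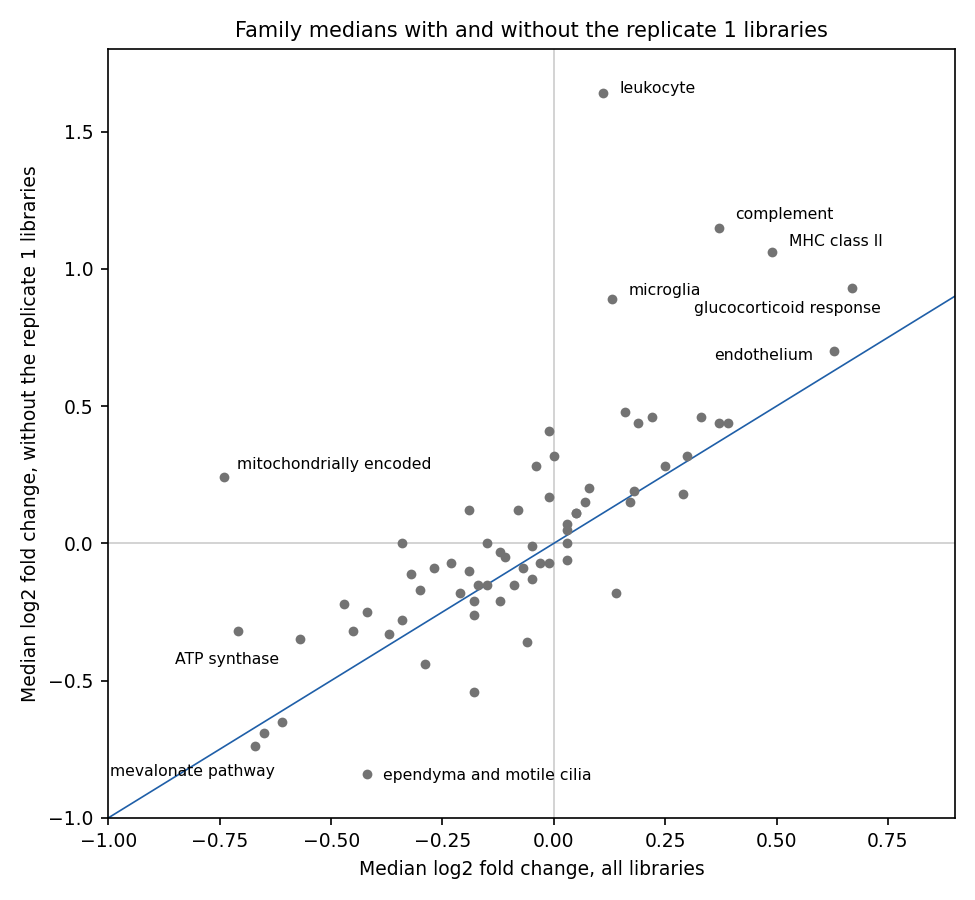
Median log2 fold change of each family with at least 5 tested genes, with all libraries (x axis) and without the replicate 1 libraries (y axis), where the blue line marks equal values. Sterol synthesis, endothelium and most families lie near the line, immune families lie above it, and the mitochondrially encoded genes change sign, from -0.74 to 0.24.

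In the interferon list 32 of 37 tested genes were higher, with a median of 0.33 and 4 members at an unadjusted p under 0.05. Leaving out 1 library gave medians from 0.15 (sham 2) to 0.50 (sham 1). Rtp4, an interferon-induced chaperone, was at 6.10, 7.74 and 11.6 CPM in sham and 15.7, 15.9 and 14.9 CPM in untrained libraries (0.86, SE 0.28). Gbp3, an interferon-induced GTPase, was at 1.74, 1.84 and 2.34 CPM against 4.36, 3.12 and 3.86 CPM (0.92, SE 0.36). Neither overlapped. Irf7, the factor that amplifies the response, stood at 0.96 (SE 0.40) with overlap. All 9 tested MHC class II genes were above 0, none at an unadjusted p under 0.05. Integrins had a median near 0 with Itga5 and Itgad apart from the rest. The integrin median was 0.32 without the replicate 1 libraries, with 4 of 20 lower, and 0.24 without sham 1. Itga5, the fibronectin receptor subunit, was at 0.109, 0.317 and 0.273 CPM in sham and 1.45, 0.891 and 1.51 CPM in untrained libraries, and its ligand Fn1, fibronectin, at 2.18, 1.71 and 1.04 CPM against 3.70, 3.45 and 2.05 CPM. Their log2 fold changes were 2.33 (SE 0.55) and 0.93 (SE 0.40).

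Ependymal and axial position genes were lower. Ependymal cells line the central canal with beating cilia. In their list 20 of 21 tested genes were lower, with a median of -0.42, or -0.84 without the replicate 1 libraries. Tmem212, a ciliated cell gene, was at 4.36, 8.89 and 10.4 CPM in sham and 6.02, 3.06 and 1.93 CPM in untrained libraries (-1.11, SE 0.46). Tekt4, a tektin of cilia, was the only member above 0, at 1.09, 2.92 and 2.73 CPM against 4.83, 6.62 and 11.7 CPM (1.74, SE 0.49). Hox genes, which keep the record of a cell's place along the body axis, were lower in 20 of 29, with a median of -0.29. That median was -0.06 without untrained 2 and -0.45 without untrained 1. Hoxc6 was at 4.68, 3.17 and 4.09 CPM in sham and 2.25, 1.67 and 1.21 CPM in untrained libraries (-1.21, SE 0.36), and Hoxc9 stood at -0.49 (SE 0.26) with overlap. The spinal level of each sample is not given in the labels, so level and injury cannot be told apart in these genes. Of the matrix genes around neurons Ncan, neurocan, was at 10.1, 13.8 and 17.0 CPM in sham and 0.529, 5.29 and 6.15 CPM in untrained libraries (-1.77, SE 0.60). Aqp4, the water channel of astrocytes, was at 514, 219 and 254 CPM against 194, 162 and 158 CPM (-0.94, SE 0.31), or -0.43 without sham 1. The astrocyte list had a median of -0.01, which was 0.41 without the replicate 1 libraries, with 4 of 29 lower, and 0.38 without sham 1.

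The genes that DESeq2 called and that have not been described include receptors and enzymes of several roles. Ada, adenosine deaminase, was at 2.07, 1.90 and 1.91 CPM in sham and 4.43, 9.07 and 9.71 CPM in untrained libraries, with a log2 fold change of 1.98 (SE 0.37) and a DESeq2 adjusted p of 0.00163. Paqr5, a membrane progestin receptor, was at 4.14, 6.73 and 4.25 CPM against 14.9, 18.3 and 13.8 CPM, with a log2 fold change of 1.63 (SE 0.37) and a DESeq2 adjusted p of 0.0335. Wdfy1, an adaptor of Toll-like receptor signalling, was at 3.27, 3.74 and 3.71 CPM against 16.1, 32.6 and 6.51 CPM, a spread of several-fold within the untrained group (2.36, SE 0.49). Igfbp4, an insulin-like growth factor binding protein, was lower, at 14.6, 16.8 and 32.2 CPM against 1.52, 6.90 and 6.33 CPM (-2.11, SE 0.51). Itgad, an integrin of phagocytes, was at 2.29, 1.52 and 1.64 CPM against 4.23, 5.29 and 20.8 CPM (2.50, SE 0.56). H2-Q2, an MHC class I gene with near-identical paralogs between which reads can be split, stood at 2.01 (SE 0.39). The predicted gene Gm44969 had 0 counts in all 3 sham libraries and 17, 11 and 31 in untrained libraries. Without sham 3 the log2 fold changes of these 6 named coding genes kept their sign, from 2.43 (Itgad) to -1.67 (Igfbp4). Without the replicate 1 libraries edgeR called Ada (adjusted p 0.0164), Igfbp4 (0.0286) and Itgad (0.0361), and also Plin4 (0.0219).

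Among further genes with non-overlapping groups, Serpinb1a, an inhibitor of neutrophil proteases, was at 92.1, 162 and 170 CPM in sham and 33.8, 66.4 and 56.9 CPM in untrained libraries (-1.43, SE 0.33), and edgeR called it without the replicate 1 libraries (adjusted p 0.0164). Ninj2, an adhesion protein of glia, was at 20.8, 16.3 and 23.9 CPM against 2.51, 6.18 and 9.11 CPM (-1.77, SE 0.48). Fabp5, a fatty acid carrier, was at 2060, 711 and 970 CPM against 460, 489 and 571 CPM (-1.30, SE 0.35), or -0.64 without the replicate 1 libraries. Etnppl, an astrocyte enzyme of phosphoethanolamine breakdown, was at 44.7, 45.5 and 33.5 CPM against 70.8, 58.8 and 124 CPM (1.03, SE 0.30). Phyhd1, a dioxygenase, was at 7.74, 7.24 and 6.60 CPM against 15.3, 20.7 and 21.4 CPM (1.41, SE 0.24), and was called in the same way (adjusted p 0.0164).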

How the data were processed

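Smart-seq2 libraries of spinal motoneurons were analysed from 1 deposited table. Per the labels' protocols, the authors aligned reads with Hisat2 2.0.1 and counted genes with HTSeq 0.6.1. The submitters' processing notes name the mm10 build. No annotation or strand setting is given in the sources used here, so reads of overlapping and antisense genes cannot be told apart. The authors deposited whole-number counts and FPKM, which per the file headers are counts scaled by exonic length and library total, for each library. Recomputed FPKM lay within 0.006 of 100% of the deposited values. Of the identifiers, 217 share a symbol with another, and the one with most counts was used.

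Counts were tested with edgeR 4.0.16 in R 4.3.3 (filterByExpr, TMM, quasi-likelihood) over all 9 libraries with a coefficient per group, and p-values were adjusted by Benjamini-Hochberg over all genes tested. DESeq2 1.42.0 and limma 3.58.1 were alternatives. The scripts were tested on simulated data. Families are given as counts and medians with no set test, and the members and lists were chosen with earlier results of these data known. Named genes were up to 12 per direction of smallest p with a log2 fold change of at least 1, non-overlapping groups and, in the group where it was higher, a mean FPKM of 5 or more (predicted genes, pseudogenes and haemoglobins left out), DESeq2 calls, up to 8 per direction called without the replicate 1 libraries, up to 5 members of smallest p and the key members of each family, and genes with 0 counts in 1 group and at least 10 in each library of the other. The counts hold no molecular identifiers, so duplicate reads from PCR are included. The list members Ggps1, Ebp, Lbr, Scap, Npc2, Mfsd2a, Slc16a1, Bnip3, Epas1, Egln3, Klf9, Hsd11b1, Clock, Lhx3, Chodl, Mmp9 and Esrrg fall outside this rule and were chosen after their values were seen. Some members of the lists are counted in the families but not reported here by name.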

Additional observations from a re-analysis of the deposited data

How the results depend on the processing

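The count of genes called was 0 in edgeR as reported. It was 14 with DESeq2, 1 with library totals only, 134 with no low-count filter, 9 with a term for the replicate 1 libraries, 47 without the replicate 1 libraries and 1 with limma on log2(FPKM + 0.1). Leaving out 1 library at a time gave 0 each time. With only the 6 sham and untrained libraries in the fit edgeR also called 0. There 443 genes were higher and 328 lower at an unadjusted p under 0.05. Genes higher at an unadjusted p under 0.05 numbered 347 as reported, 606 with library totals only, 812 with no filter and 917 without the replicate 1 libraries, with a leave-one-out range of 177 (sham 3) to 625 (sham 1). Genes lower numbered 360, then 108, 555 with no filter, 642 with the replicate 1 term, 85 and 80 with limma at pseudocounts of 1 and 0.1, with a leave-one-out range of 205 (sham 3) to 475 (sham 2).

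With the replicate number as a block, 4 genes were called, among them Cox7a1 (adjusted p 0.0409), and 564 were lower at an unadjusted p under 0.05. The labels do not say whether the numbers pair the libraries. Deviations of same-numbered sham and untrained libraries correlated at 0.469, 0.0785 and 0.297 (replicates 1 to 3). Sham 2 correlated best with untrained 3 (0.363), and sham 3 with untrained 2 (0.313). The other differently numbered pairs of these groups were below 0, down to -0.44 (sham 1 with untrained 3). Whether same-numbered libraries share a pairing or a batch was not tested.

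The 12 featured families kept their sign under all 16 alternatives. Values that moved beyond the spread were 0.58 for hypoxia with library totals, -0.25 for ATP synthase with limma at a pseudocount of 1, -0.23 and -0.24 for neurofilaments with limma and 0.63 for interferon with limma at 0.1. Leave-one-out ranges were 0.49 to 0.93 for endothelium, -0.79 to -0.16 for ATP synthase, -0.56 to -0.03 for complex I, -0.56 to -0.15 for motor neuron identity, -0.60 to -0.19 for myelin and 0.15 to 0.50 for interferon. Of 68 family medians, 36 changed sign in at least 1 alternative, 18 of them with a reported size of at least 0.1. Among medians of at least 0.3 in size, those that reached or crossed 0 were tissue-restricted cytochrome oxidase (0.00 with DESeq2 and 0.00 with no filter, where an undetected member enters), mitochondrially encoded genes (0.24 without the replicate 1 libraries, 0.31 without sham 1, -1.17 without sham 2), Schwann cell genes (0.00 without the replicate 1 libraries) and small ribosomal subunits (0.05 without sham 1, -0.51 without sham 2). S100a8, S100a9 and Vim stood at 3.36, 3.22 and 1.62 without the replicate 1 libraries against values below 0 with them. The cause was not tested. With 3 libraries per group, an adjusted p above 0.05 does not show that a gene did not differ.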
